A study of Mus musculus with 14 samples.

Results

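The acute phase genes described here were *Saa1*, *Saa2*, *Saa3*, *Lcn2*, *Hp* and *Ptx3*. Their probes were chosen by name, as the probes of the array other than controls whose gene name equals 1 of these 6 symbols. This found all 6 genes, of 27962 gene names on the array, with 8 probes of 41174, a pair each for *Saa1* and *Ptx3* and 1 for each other gene, and all 8 were among the 22172 probes that were tested. All cells were *p65*(-/-) mouse embryonic fibroblasts (MEFs), described in the study's methods as NIH 3T3 MEFs, that had been infected with lentivirus. They carried myc-tagged wild type p65, the mutant KTR (K310/314/315R), the mutant K314/315R or the empty vector pTV, and were used as pools of cells after selection with Blasticidin. In the mutants the named lysines of p65 are replaced by arginine, which cannot be acetylated. After overnight starvation they received TNFα at 30 ng/ml for 3 h, in 3 cultures each of wild type, KTR and pTV and 2 of K314/315R. Wild type cells were also measured in 3 cultures without TNFα (0 h). There was no array at 0 h for KTR, K314/315R or pTV, so the response to TNFα could be computed for wild type cells alone.

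Acute phase proteins are plasma proteins whose synthesis rises during infection or injury. The liver is their best known source, where interleukin-6 and interleukin-1 act through STAT3, C/EBP factors and NF-κB, and several of them are also made by fibroblasts, macrophages and epithelia. The serum amyloid A proteins SAA1 and SAA2 travel in plasma on high density lipoprotein, and SAA3 is the member of the family that is made mostly outside the liver in mice. Haptoglobin (*Hp*) binds free haemoglobin. Lipocalin 2 (*Lcn2*) withholds iron from bacteria by binding their siderophores. Pentraxin 3 (*Ptx3*) is a soluble pattern recognition molecule that binds microbes and the complement protein C1q and is made locally, also by fibroblasts. NF-κB is a family of transcription factor dimers, and p65 is the subunit that TNFα most often brings into the nucleus.

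Sequence before the start that RefSeq lists is shown because the results below concern the p65 dependence of these genes, and because the windows of *Saa1* and *Saa2* are nearly the same. RefSeq sequences of GRCm38.p6 held a window of 250 bases before to 50 bases after the start for 5 of the 6 genes, and *Hp* had none in the table used. Both strands were searched for the NF-κB consensus site, the C/EBP motif TTGCNNAA and the STAT motif TTCNNNGAA. Of 32851 windows in the table, 8.46% held the NF-κB consensus, 10.8% the C/EBP motif and 8.3% the STAT motif. A C/EBP match lay in each of the 5 windows and an NF-κB match only in that of *Ptx3*, while the STAT letters were in none of them. Capitals mark the matches in the following lines, all written 5′ to 3′ on the strand of the gene.
*Saa2* (chr7:46751583-46751832, plus strand, the 250 bases before the start, C/EBP match at −183 to −176 from it): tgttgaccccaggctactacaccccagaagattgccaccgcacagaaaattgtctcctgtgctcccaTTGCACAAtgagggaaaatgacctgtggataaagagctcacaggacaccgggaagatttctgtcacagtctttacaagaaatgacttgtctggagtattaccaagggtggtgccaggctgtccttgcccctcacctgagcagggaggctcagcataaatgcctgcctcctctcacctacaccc
*Saa1* (chr7:46743144-46743173, minus strand, 30 bases around the C/EBP match): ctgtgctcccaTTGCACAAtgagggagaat
*Saa3* (chr7:46715757-46715786, minus strand, 30 bases around the C/EBP match, which lies on the opposite strand): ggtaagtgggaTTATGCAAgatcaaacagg
*Lcn2* (chr2:32387740-32387989, minus strand, the 250 bases before the start, C/EBP match at −216 to −209 from it): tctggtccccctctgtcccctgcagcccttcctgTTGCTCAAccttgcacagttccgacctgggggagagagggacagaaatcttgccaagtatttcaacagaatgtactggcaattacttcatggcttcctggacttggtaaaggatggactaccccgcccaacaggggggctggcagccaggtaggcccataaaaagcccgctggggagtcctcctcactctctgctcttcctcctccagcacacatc
*Ptx3* (chr3:66219637-66219901, plus strand, the 250 bases before the start and the first 15 after it, C/EBP match on the opposite strand and overlapping NF-κB matches at the start itself): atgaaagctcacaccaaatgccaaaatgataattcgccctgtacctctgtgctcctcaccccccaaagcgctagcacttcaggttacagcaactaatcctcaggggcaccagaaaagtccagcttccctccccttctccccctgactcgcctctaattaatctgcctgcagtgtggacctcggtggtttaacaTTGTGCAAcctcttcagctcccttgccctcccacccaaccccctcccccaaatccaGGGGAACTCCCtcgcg

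Over the 250 bases before the start, *Saa1* and *Saa2* were identical at 238 of 251 aligned positions (94.8%), the C/EBP match included. *Saa1* and *Saa3* were identical at 47.4% of aligned positions and *Saa2* and *Saa3* at 45.5%, values that depend on the cost set for gaps. The genes of the family lie together on chromosome 7, *Saa3* at 46711998 to 46719615, *Saa1* at 46740497 to 46743181 and *Saa2* at 46751833 to 46754313, the last on the opposite strand to the other two. The listed spans of *Saa1* and *Saa3* reach farther upstream than the starts used here, so the bases shown for these genes lie inside the listed gene, as does part of the *Saa1* window and the whole *Saa3* window that were aligned. *Saa1* and *Saa2* are listed as synonyms of each other in the gene table, and near-identical transcripts can bind each other's probes, so the signals of these 2 genes are uncertain as to which was measured. A match of letters describes the window and does not show binding. The loci of the other genes were 32384637 to 32387739 on chromosome 2 for *Lcn2*, 109575128 to 109579172 on chromosome 8 for *Hp* and 66219887 to 66225806 on chromosome 3 for *Ptx3*.

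The 14 arrays came from 4 slides. On slides 1, 2 and 3 every group but K314/315R had 1 array, always at the same position, so array position and group cannot be told apart. The K314/315R arrays were alone on slide 4, which was read with a later release of the image software. For K314/315R the effects of slide and cell line therefore cannot be told apart. Within a group the arrays had a Pearson r of 0.984 to 0.995 over the tested probes. The brighter probe of *Rela*, the gene of p65, gave a mean log2 signal of 1.53 in wild type cells at 3 h and 1.18 in pTV cells, which limma did not separate (difference 0.35 ± 0.17 (SE), adjusted p = 0.21). Whether this probe lies in the deleted part of the gene was not known, so it does not check the labels. Of the fibroblast markers, 10 of 10 were on the array and 9 of them were well above background on all 14 arrays, with a summed signal of 1104 to 1306 times the 75th percentile of the array in pTV and 1151 to 1314 in wild type cells at 3 h. Of the markers of other cells, 3 of 6 hepatocyte genes (*Apoa1*, *Apoa2* and *Ttr*), *Ptprc*, *Emr1* and *Itgam* of 8 leukocyte genes, *Ela2*, *S100a8* and *S100a9* of 5 neutrophil genes, 4 of 4 endothelial genes and *Cdh1* and *Tacstd1* of 4 epithelial genes were well above background on no array. *Tat*, *Cd3e*, *Mpo* and *Krt8* were well above background on all 14 arrays, with mean log2 signals of −3.22, −2.61, −2.48 and −2.57, *Csf1r* on 13, *Camp* on 9, *Cd68* on 6 and *Krt18* on 5, and the other 4 on 1 each. The summed signals of the lists in wild type cells at 3 h and in pTV were 0.135 to 0.202 and 0.164 to 0.279 for the hepatocyte list, 0.332 to 0.349 and 0.346 to 0.753 for leukocytes, 0.279 to 0.328 and 0.255 to 0.396 for neutrophils, and 0.0536 to 0.0632 and 0.0494 to 0.064 for endothelium. The epithelial sum was 0.171 to 0.208 in wild type cells at 3 h and 0.308 to 0.382 in pTV, without overlap, and its part in the results was not tested. In whole cultures, fewer cells that express a gene and less RNA per cell cannot be told apart.

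The 6 genes were measured in every line that carried p65, and in pTV cells all read lower. There *Ptx3*, *Lcn2* and the brighter *Saa1* probe were well above background on all 3 arrays, *Hp* on 2 and *Saa2* and *Saa3* on none. Levels below are the log2 of a probe's signal divided by the 75th percentile of the signals of its array, so that 0 means a probe as bright as that percentile. Where a gene has a pair of probes, the brighter stands for it. Levels of different probes are not compared, since the probes differ in how well they bind.

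**Figure D1:**
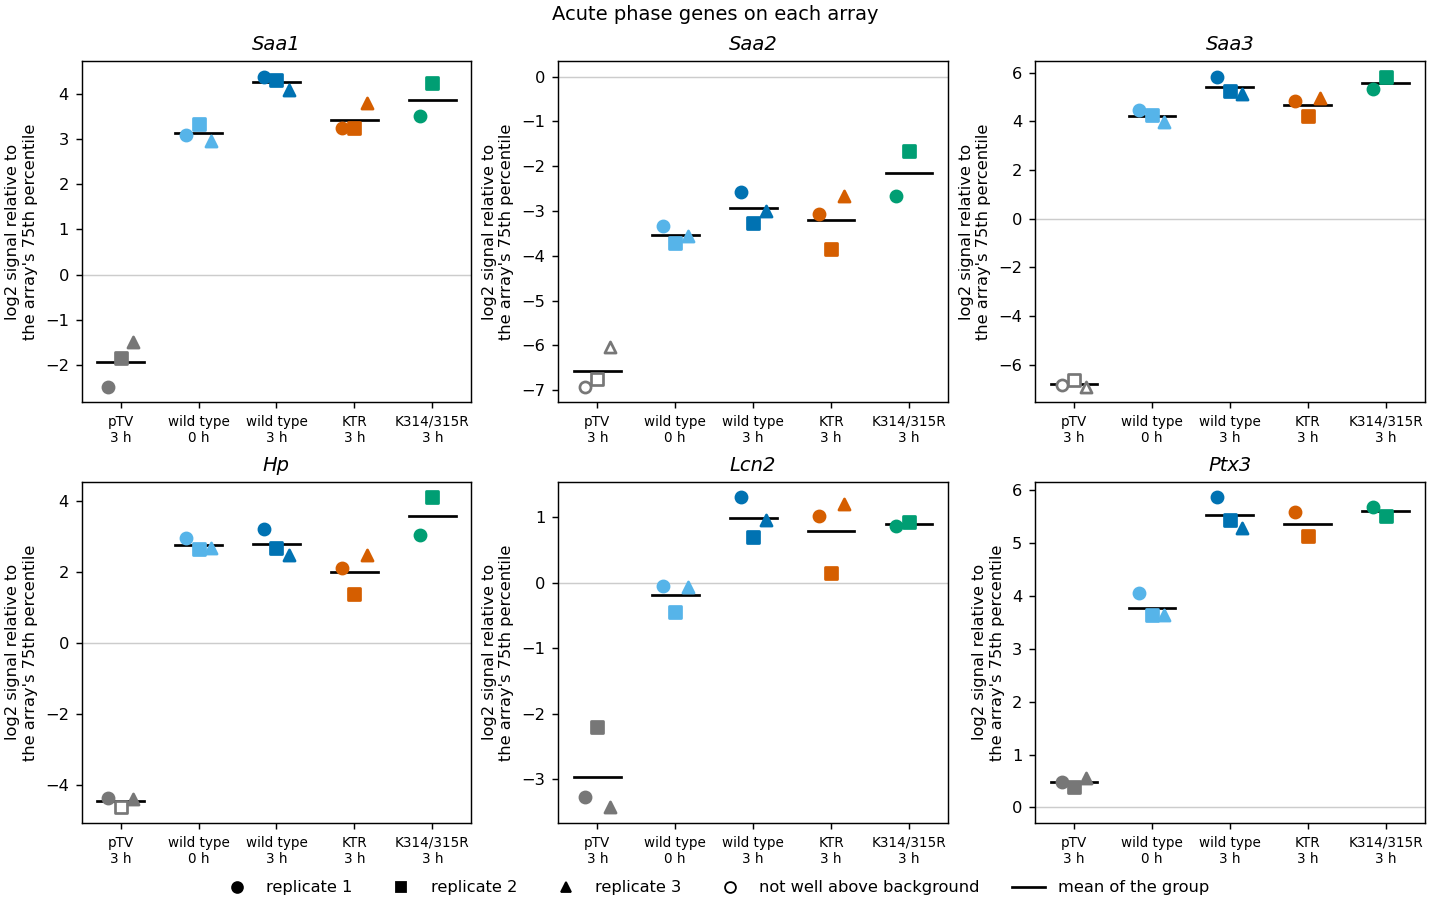
Log2 of the signal over the 75th percentile of its array, for the brightest probe of each gene (1 panel per gene, with its own vertical scale). Points are single arrays in the 5 groups, marker shapes give the replicate number, open points were not well above background, and horizontal lines are group means. In every panel the pTV arrays lie below all arrays of cells that carry p65, and only *Hp* has wild type arrays at 0 h and at 3 h in the same range.

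*Saa3* had the largest distance. Its probe read 5.84, 5.26 and 5.14 in wild type cells at 3 h, 4.86, 4.23 and 4.95 in KTR, 5.34 and 5.84 in K314/315R, and 4.47, 4.27 and 3.99 in wild type cells at 0 h. In pTV cells it read −6.83, −6.62 and −6.91 and was not well above background on any array. The signal in wild type cells at 3 h was therefore at least 1155-fold higher than in pTV (adjusted p = 4.9e-11), a bound that sets the mean of the bright arrays against the lowest signal that counts as well above background on each pTV array. The same bound was 694-fold for KTR and 1307-fold for K314/315R. These bounds depend on how the background is treated, since the normexp correction gave fitted log2 differences of 8.07, 7.70 and 8.38, below them. Ordered by mean, the levels ran from K314/315R (5.59) and wild type at 3 h (5.41) to KTR (4.68), wild type at 0 h (4.24) and pTV (−6.79). K314/315R overlapped with wild type at 3 h in range, as did those of KTR and wild type at 0 h.

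*Saa1* read 4.39, 4.32 and 4.08 in wild type cells at 3 h, 3.24, 3.25 and 3.80 in KTR, 3.50 and 4.24 in K314/315R and 3.09, 3.34 and 2.97 in wild type cells at 0 h. The pTV arrays read −2.49, −1.86 and −1.49, all well above background. The difference over pTV was 6.21 ± 0.26 (SE) on the log2 scale in wild type cells at 3 h, 5.37 ± 0.26 in KTR and 5.82 ± 0.29 in K314/315R, and each pTV array lay below every other array. The normexp correction gave 5.33, 4.84 and 5.08, all called. The order of means was wild type at 3 h (4.26), K314/315R (3.87), KTR (3.43), wild type at 0 h (3.13) and pTV (−1.95), and all neighbours but the last overlapped. The second *Saa1* probe was dim, and most of its values were not well above background. It was well above background only on both K314/315R arrays, at −4.75 and −3.75, and on 1 wild type array at 0 h, at −3.21. The other arrays read −7.15 to −4.27 with that probe. The pTV arrays were the lowest of these as well (−7.15 to −6.80), at values that depend on the background signal.

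*Saa2* was dimmer. It read −2.56, −3.27 and −3.00 in wild type cells at 3 h, −3.07, −3.84 and −2.65 in KTR, −2.67 and −1.65 in K314/315R, and −3.34, −3.72 and −3.56 in wild type cells at 0 h, all well above background. In pTV cells it read −6.92, −6.75 and −6.03 and was not well above background. The signal was at least 3.52-fold higher than pTV in treated wild type cells (adjusted p = 1.3e-05), at least 2.97-fold in KTR and at least 6.05-fold in K314/315R. Under the normexp background correction, an alternative that adds an offset of 50 to every signal, no line was called over pTV at *Saa2*. The fitted log2 difference was then 1.20 in treated wild type cells (adjusted p = 0.97), 0.71 in KTR (0.87), 1.27 in K314/315R (0.65) and 0.31 in wild type cells at 0 h (0.85). The means ran from K314/315R (−2.16) through wild type at 3 h (−2.94), KTR (−3.19) and wild type at 0 h (−3.54) to pTV (−6.57), with overlap between all neighbours but the last.

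*Hp* read 3.21, 2.67 and 2.49 in wild type cells at 3 h and 2.97, 2.66 and 2.67 at 0 h, 2 groups in the same range. It read 2.13, 1.40 and 2.49 in KTR and 3.06 and 4.11 in K314/315R. In pTV cells it read −4.37, −4.63 and −4.39, and 2 of the 3 arrays were well above background. *Hp* was 153-fold higher than pTV in wild type cells at 3 h, 88.6-fold in KTR and 265-fold in K314/315R (adjusted p = 1.6e-08, 5.1e-08 and 2.4e-08). In log2 these differences were 7.26, 6.47 and 8.05, and the normexp correction lowered them to 5.09, 4.65 and 6.12, all still called. The means ran from K314/315R (3.59) through wild type at 3 h (2.79) and at 0 h (2.77) to KTR (2.01) and pTV (−4.46). The first 3 groups overlapped with their neighbours, and KTR lay below both wild type groups, by less than 0.01 on the log2 scale for the closest arrays.

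*Lcn2* read 1.30, 0.70 and 0.95 in wild type cells at 3 h, 1.02, 0.15 and 1.21 in KTR and 0.86 and 0.92 in K314/315R. These 3 groups overlapped. The arrays at 0 h read −0.05, −0.44 and −0.07, below all of them, and the pTV arrays read −3.27, −2.20 and −3.43. *Lcn2* was 15.5-fold higher than pTV in treated wild type cells (adjusted p = 4.7e-06), 13.5-fold in KTR and 14.5-fold in K314/315R. In log2 these differences were 3.95, 3.76 and 3.86, and 2.86, 2.86 and 2.81 under the normexp correction, all called. The pTV arrays of *Lcn2* had an SD of 0.67, with 1 array more than 1 log2 unit above the other two.

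*Ptx3* was the one gene well above background on all arrays in pTV at a level above the 75th percentile. Its brighter probe read 5.87, 5.43 and 5.28 in wild type cells at 3 h, 5.58 and 5.14 in KTR, where the spot on the third array was an outlier and was left out, and 5.68 and 5.52 in K314/315R. It read 4.05, 3.64 and 3.64 in wild type cells at 0 h and 0.49, 0.39 and 0.55 in pTV. The 3 groups with p65 at 3 h overlapped, all lay above wild type at 0 h, and that lay above pTV. The difference over pTV was 5.05 ± 0.18 (SE) on the log2 scale in wild type cells at 3 h, 4.88 ± 0.20 in KTR and 5.12 ± 0.20 in K314/315R. The other probe gave 4.95 ± 0.14, 4.62 ± 0.14 and 5.06 ± 0.15.

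Counted over probes, 7 of 8 were called higher in wild type cells than in pTV at 3 h (a fold over 2 and an adjusted p under 0.05), where 3.59% of all tested probes were called higher. The exception was the dim *Saa1* probe. In KTR over pTV 7 of 8 were called higher (3.32% of all probes) and in K314/315R over pTV 8 of 8 (4.18%). Only in K314/315R was the dim *Saa1* probe well above background on every array, so it entered the tests through that group. The dim *Saa1* probe was the one that differed, and its call there was lost without K314/315R replicate 2 (adjusted p = 0.15) or pTV replicate 3 (0.051), under the normexp correction (0.97) and with a random block for slide (0.089). The median difference of wild type over pTV was 5.05 on the log2 scale over the 7 probes with a value, the dim ones at their bound, and −0.03 over all tested probes.

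Wild type cells lay above treated pTV cells already before TNFα was added. In wild type cells at 0 h, 8 of 8 probes were called higher than in pTV cells at 3 h, against 3.71% of all tested probes. Cell line and treatment both differ in this comparison, and pTV cells at 0 h were not measured, so it sets untreated cells with p65 beside treated cells without it. *Hp* was 150-fold higher in untreated wild type cells than in treated pTV cells, *Saa1* 33.8-fold, *Ptx3* 9.84-fold and *Lcn2* 6.87-fold. *Saa3* was at least 512-fold and *Saa2* at least 2.33-fold higher. The normexp correction lowered the log2 difference of *Hp* from 7.23 to 5.38, that of *Lcn2* from 2.78 to 1.91 and that of *Saa3* to 7.22, all still called. The dim *Saa1* probe was called with 1 of 3 wild type arrays well above background, at a bound of 1.02-fold.

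**Figure D2:**
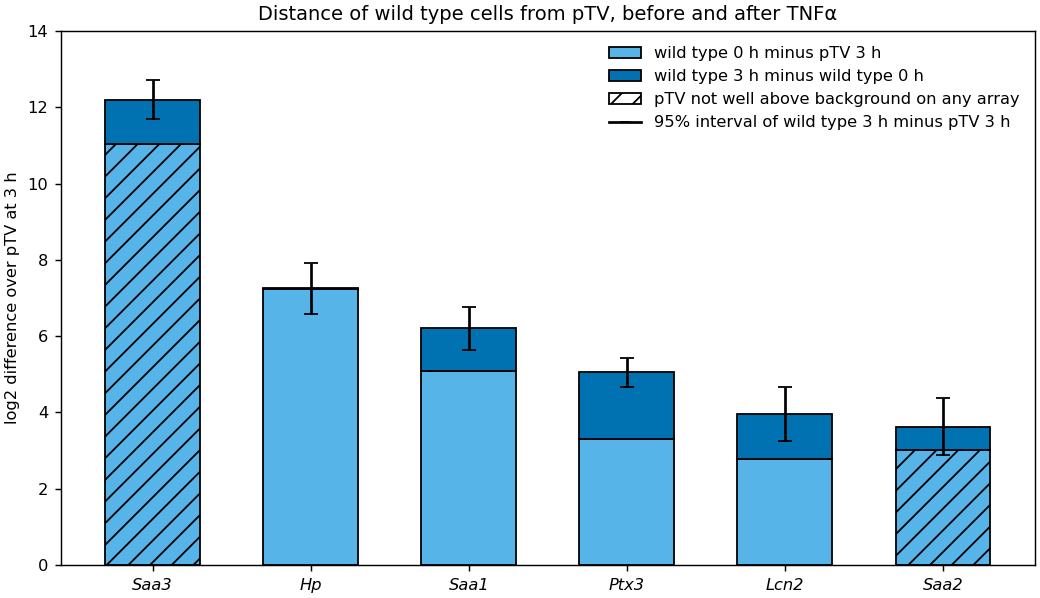
Log2 difference of wild type cells from pTV cells at 3 h for the brightest probe of each gene, stacked as the difference of wild type at 0 h from pTV at 3 h (light) and the further difference of wild type at 3 h from 0 h (dark). Error bars are the 95% interval of the whole difference, and hatching marks genes that were not well above background on any pTV array, whose fitted height depends on the background signal. For *Hp* the dark segment is 0.02 and for *Ptx3* it is 1.75 of 5.05.

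TNFα raised part of the group further in wild type cells. Of 8 probes 4 were called higher at 3 h than at 0 h (a ratio over 1.8 and an adjusted p under 0.05), where 1.12% of all tested probes were called higher. *Ptx3* rose 3.36-fold by the brighter probe (log2 difference 1.75, 95% interval 1.36 to 2.14, adjusted p = 0.00027) and 3.22-fold by the other (adjusted p = 4.1e-05). Within slides 1 to 3 the brighter probe rose by 1.82, 1.79 and 1.64. *Ptx3* was the member that stayed called in every fit that left out an array.

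*Saa3* rose 2.26-fold (log2 difference 1.17, 0.67 to 1.68, adjusted p = 0.013), with 1.37, 0.99 and 1.16 within the slides. *Saa1* rose 2.19-fold (1.13, 0.57 to 1.69, adjusted p = 0.028), with 1.29, 0.98 and 1.11 within the slides. The *Saa1* call was lost when any 1 of the 6 arrays was left out (adjusted p = 0.055 to 0.11) or when dim probes were not filtered (0.079), and that of *Saa3* without wild type replicate 1 at 3 h (adjusted p = 0.054) or replicate 3 at 0 h (0.065). Neither was called under the normexp correction (0.82 and 0.85 on the log2 scale, adjusted p = 0.59 for both).

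*Lcn2* differed by 1.17 on the log2 scale, as much as *Saa3*, with 1.36, 1.14 and 1.02 within the slides, and was not called (0.46 to 1.88, adjusted p = 0.067). It was called when the slide entered as a random block (adjusted p = 0.036) or with only the 6 wild type arrays in the fit (0.018). *Saa2* differed by 0.60 (−0.15 to 1.35, adjusted p = 0.43), higher at 3 h within each slide. *Hp* differed by 0.02 (−0.64 to 0.69, adjusted p = 0.98), with 0.24, 0.01 and −0.18 within the slides. The interval of *Hp* leaves out a rise of the size measured for *Ptx3*.

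In the mutants no acute phase probe was called against wild type at 3 h. The paper, with its own processing, lists *Saa2* among the genes lower in KTR than in wild type. That call was not found here, where the *Saa2* probe in KTR was at 0.84 of wild type (adjusted p = 0.88 by limma). The cause of this disagreement was not tested. In KTR over wild type, limma called 0 of 8 in either direction at a change over 1.8-fold and an adjusted p under 0.05. An unadjusted p under 0.05 was found for 4 of 8. The share of all tested probes at that unadjusted level is not given here, so this count cannot be weighed. Of all tested probes 0.14% were called lower in KTR. The mean was lower in KTR at the 7 probes that could be measured, as at 36.6% of all tested probes. The KTR arrays were all lower than the wild type arrays at 3 of them, those of *Saa1*, *Saa3* and *Hp*, and at 5.25% of all tested probes. *Saa1* was at 0.56 of wild type (log2 difference −0.84, 95% interval −1.40 to −0.27, adjusted p = 0.30), *Hp* at 0.58 (−0.79, −1.45 to −0.12, adjusted p = 0.44) and *Saa3* at 0.60 (−0.74, −1.24 to −0.23, adjusted p = 0.31). *Saa2*, *Lcn2* and the brighter *Ptx3* probe differed by −0.25, −0.19 and −0.17, with intervals of −0.997 to 0.504, −0.91 to 0.52 and −0.60 to 0.27. The median over the 7 probes was −0.33, beside 0.06 over all tested probes.

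The KTR difference varied in size between slides 1, 2 and 3, on which the slide is also the replicate number. Whether it depends on the slide was not tested. On slides 1 and 2 the log2 difference of KTR from wild type at *Saa1* was −1.15 and −1.08, and on slide 3 it was −0.28. *Saa3* gave −0.98, −1.03 and −0.20, and *Hp* gave −1.08, −1.27 and −0.01. KTR replicate 3, on slide 3, was the highest KTR array at *Saa1*, *Saa2*, *Saa3*, *Hp* and *Lcn2*, and KTR replicate 2 the lowest at 4 of these 5. At *Ptx3*, where the brighter probe had no value on replicate 3, the other probe read 5.16, 4.93 and 4.98, with replicate 1 the highest. KTR replicates 2 and 3 also had the most outlier spots of all arrays, 212 and 326 of 43379, and the part of array quality in these values was not tested.

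**Figure D3:**
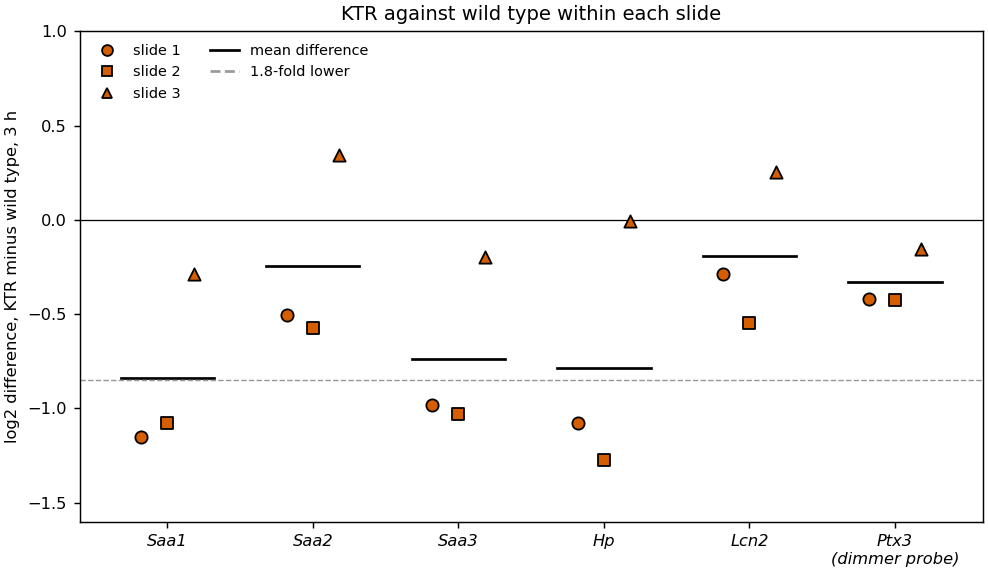
Log2 difference of KTR minus wild type at 3 h within each of slides 1 to 3 (points) and the mean difference (horizontal line), for the brightest probe of each gene and, for *Ptx3*, the dimmer probe, which has a value on all arrays. The dashed line marks a signal 1.8-fold lower in KTR. At each gene the point of slide 3 lies above those of slides 1 and 2, and for *Saa2* and *Lcn2* it lies above 0.

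In K314/315R over wild type, limma called 0 of 8 probes in either direction, against 1.21% of all tested probes. An unadjusted p under 0.05 was found for 1 of 8, *Hp*, and here too the share of all tested probes is not given. The mean was higher in K314/315R at 6 probes and lower at 2. Among the 6 was the dim *Saa1* probe, which entered the tests through K314/315R. It was well above background on no wild type array at 3 h. The share of all tested probes with a higher mean is not given here. The median over the 8 probes was 0.14, beside 0.02 over all tested probes. *Hp* was 1.74-fold higher (log2 difference 0.79, 0.05 to 1.54, adjusted p = 0.25) and *Saa2* 1.72-fold (0.78, −0.06 to 1.62, adjusted p = 0.33). *Saa1* differed by −0.39 (−1.02 to 0.24), *Saa3* by 0.18 (−0.39 to 0.74), *Lcn2* by −0.09 (−0.89 to 0.70) and *Ptx3* by 0.07 (−0.36 to 0.50). The 2 arrays of K314/315R lay apart at *Hp* (3.06 and 4.11), *Saa2* (−2.67 and −1.65) and *Saa1* (3.50 and 4.24), with replicate 2 the higher at 5 of 6 genes.

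Between the mutants, *Hp* was the one probe called, lower in KTR than in K314/315R, 1 of 8 against 0.496% of all tested probes. Its signal in KTR was 0.33 of that in K314/315R (log2 difference −1.58, 95% interval −2.32 to −0.84, adjusted p = 0.024), and all 3 KTR arrays lay below both K314/315R arrays. The call was lost without KTR replicate 2 (−1.28, adjusted p = 0.055) or K314/315R replicate 2 (−1.05, adjusted p = 0.20). It was also lost with the slide as a random block (adjusted p = 0.083), with only the 5 mutant arrays in the fit (0.17) and under the normexp correction (0.91). *Saa3* was at 0.53 (−0.91, −1.48 to −0.35, adjusted p = 0.064) and *Saa2* at 0.49 (−1.03, −1.87 to −0.19, adjusted p = 0.15), neither called. *Saa1*, *Lcn2* and *Ptx3* differed by −0.44, −0.10 and −0.24, with intervals of −1.07 to 0.19, −0.90 to 0.70 and −0.71 to 0.23. The mutants differ at lysine 310, and they were measured on different slides.

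**Figure D4:**
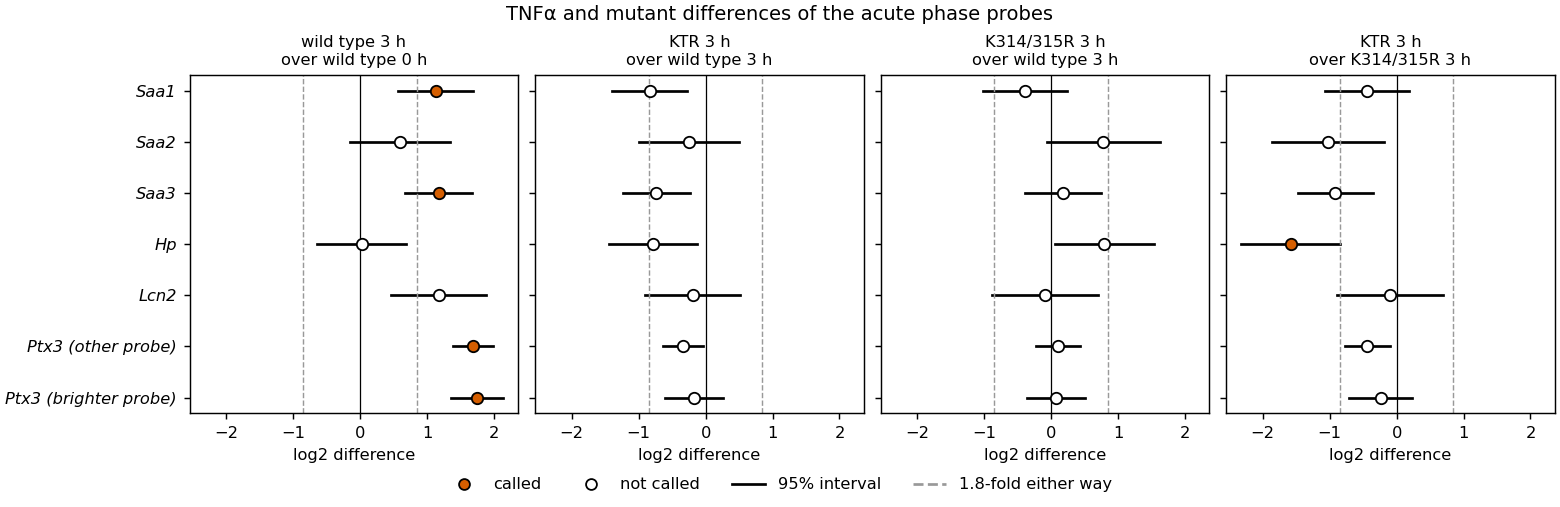
Log2 differences with 95% intervals at 7 acute phase probes (the dim *Saa1* probe is left out) in 4 comparisons. Filled points were called at a change over 1.8-fold in either direction, marked by dashed lines, with an adjusted p under 0.05. Called are *Saa1*, *Saa3* and both *Ptx3* probes for TNFα in wild type cells, and *Hp* between the mutants.

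Over all 14 arrays, the genes whose level followed a member most closely were found by Pearson's r of log2 signal, a measure that all share with the contrast of pTV against the rest. For *Saa3* they were *Slpi* (r = 0.996), *Ccl8* (0.994) and *C3* (0.994), and for *Hp* they were *Serpina3f* (0.991), *C3* (0.990) and *C1s* (0.990). For *Saa1* they were *Map3k8* (0.995), *Cfb* (0.992) and *Saa3* (0.991), and for *Saa2*, *Nek6* (0.991), *Cebpd* (0.986) and *Lgi2* (0.982). For *Lcn2* they were *Sod2* (0.985), *Irf1* (0.980) and *Mmp13* (0.977), and for *Ptx3*, over 13 arrays, *Irf1* (0.996), *Vcam1* (0.996) and *Lincr* (0.995). These are descriptions of 14 points in 5 groups.

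Other acute phase genes moved in the same comparison. Of 31 listed, 28 were on the array and 16 were tested. In treated wild type cells over pTV 7 of the 16 were called higher, beside 3.59% of all tested probes, and 0 lower, beside 323 of 22172. *C3*, the central complement protein, was higher by 7.14 on the log2 scale, *Cp* (ceruloplasmin) by 3.85, *Serpina3g* (a serine protease inhibitor) by 3.41, *Steap4* (a metalloreductase) by 3.12 and *Mt2* (metallothionein 2) by 2.00. *Lbp*, which hands lipopolysaccharide to CD14, was at least 5.56-fold higher and *Serpina3n* at least 2.11-fold. The median over the 16 was 0.69, beside the −0.03 over all tested probes. TNFα raised 2 of the 16 in wild type cells, where 1.12% of all tested probes were called higher. These were *Mt1*, by 0.86, and *Mt2*, by 1.06. *C3* read 7.29, 6.77 and 6.70 at 3 h and 7.05, 6.78 and 6.62 at 0 h in wild type cells, and 0.10, −0.66 and −0.11 in pTV. Against wild type, 0 of 16 were called in KTR and 0 in K314/315R. *Saa4*, the remaining gene of the family, *Crp*, the *Orm* genes and the fibrinogen genes were among the 12 that were on the array and were not tested.

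Of 31 cytokines, receptors and transcription factors of the response, 29 were on the array and 22 were tested. In wild type over pTV, 3.59% of all tested probes were called higher and 323 of 22172 lower. Of the list, 9 were called higher and 1 lower. Among them *Il6*, the main inducer of acute phase genes in liver, was higher by 2.69, and *Osmr* and *Il6st*, receptor chains for cytokines of the interleukin-6 family, by 1.61 and 1.34. *Cebpb* and *Cebpd*, the C/EBP factors of the response, were higher by 1.62 and 1.13, *Relb* by 1.40, *Socs3* and *Nfkbia*, inhibitors of the STAT and NF-κB pathways, by 1.14 and 1.105. *Il11* differed by −2.09, the one gene of the list that was lower. TNFα raised 2 of the 22 in wild type cells, beside 1.12% of all tested probes. *Il6* rose from 0.62, 0.34 and 0.36 at 0 h to 2.67, 2.22 and 2.39 at 3 h, a difference of 1.98 (adjusted p = 0.00072), and *Relb* by 0.92. Of the other groups at 3 h, *Il6* read 2.67, 2.12 and 2.95 in KTR and 2.96 and 3.16 in K314/315R, and −0.02, −0.82 and 0.03 in pTV. In neither mutant was any of the 22 called against wild type. The median over the list was 0.84 in wild type over pTV.

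Of 27 receptors and partners of the members, 24 were on the array and 13 were tested. In wild type over pTV 3 were called higher, beside 3.59% of all tested probes, and 0 lower, beside 323 of 22172. Among the 3 were *Tlr2*, a receptor that serum amyloid A can engage, higher by 3.95, and *Mmp9*, a protease that lipocalin 2 binds, by 1.41. *Tlr2* also rose with TNFα, by 1.29 (adjusted p = 0.00046), and neither mutant had a call against wild type. The median of the 13 was that of *Tlr4*, the receptor for lipopolysaccharide, at −0.0028.

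**Figure D5:**
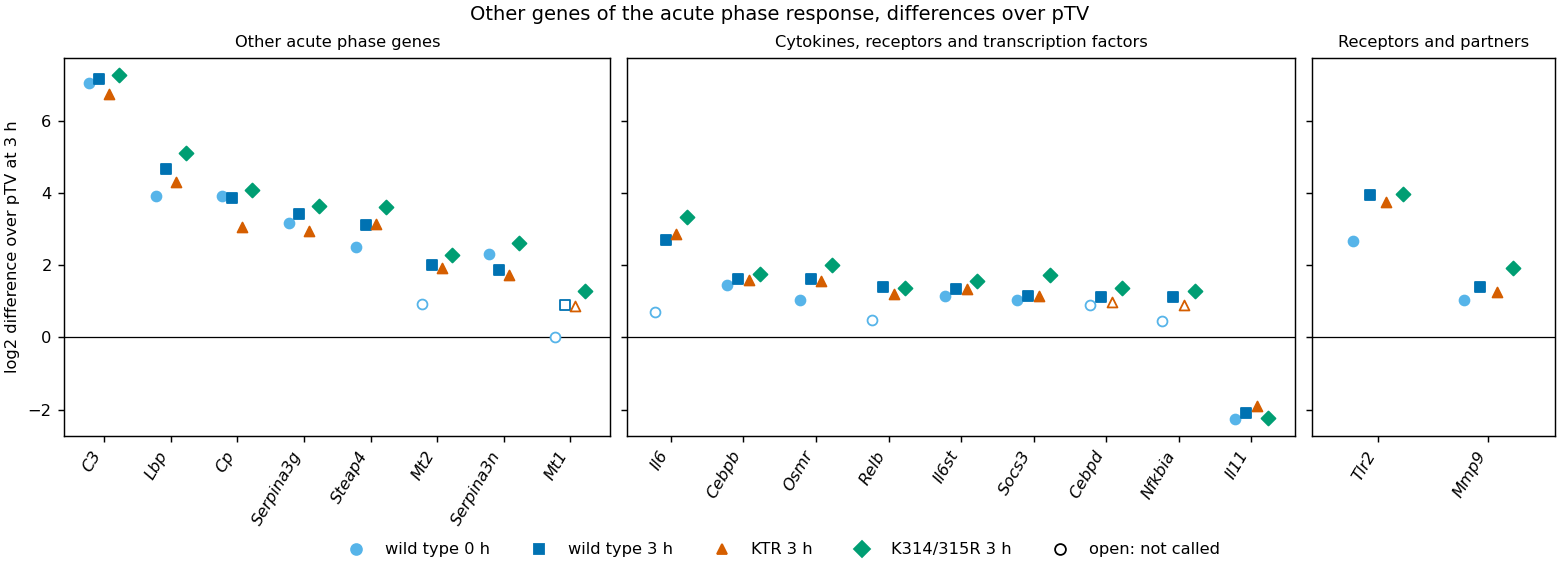
Log2 difference over pTV at 3 h of the genes named from 3 lists, all called in wild type over pTV or by TNFα in wild type cells, for wild type at 0 h and 3 h, KTR and K314/315R (filled where called at a fold over 2 and an adjusted p under 0.05). *Lbp* and *Serpina3n* were not well above background in pTV, so their height depends on the background signal. *C3* lies near 7 in all 4 groups, whereas *Il6* and *Relb* are open at 0 h and filled in the 3 groups treated with TNFα.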

How the data were processed

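Gene expression was measured on 14 one-colour Agilent Whole Mouse Genome arrays, 1 per culture. The authors deposited for every array the scanner output of Feature Extraction (release 9.1.3.1 on slide 4 and 9.1.1.1 on the others, named as 9.1 in the submitters' processing notes). Its intensity per spot is corrected for background and spatial trends and is not scaled between arrays. They also deposited a table of normalized intensity values, which was the mean corrected intensity of a probe times 1 factor per array (0.837 to 1.2), with column medians of 64.5 to 85.5. It was used as an alternative. The paper names Rosetta Resolver, whose error model was not used here.

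Non-uniform and population outlier spots (1 to 326 per array) were left out. Spots of a probe were averaged, divided by the 75th percentile of the array (967 to 1442) and log2 transformed. Tests covered the probes that were well above background throughout 1 group or more. The 5 groups entered 1 limma fit (limma 3.58.1 and version 1.17.8 of data.table in R 4.3.3). P-values were two-sided and adjusted over the 22172 tested probes by the Benjamini-Hochberg method. The script was tested on simulated data. Calls needed an adjusted p under 0.05 and, after the study's methods, a fold over 2 over pTV and a change over 1.8-fold in either direction elsewhere. The methods do not state whether their p was adjusted, so the unadjusted p was an alternative. The other alternatives were the normexp background correction (offset 50), quantile normalization, no filter or a filter on all 14 arrays, outlier spots kept, the replicate number or the slide as a block, the 2 groups alone, no fold limit and each array left out. A bound ("at least") stands where a group was well above background on none of its arrays. The number of arrays limits the precision.

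The 6 genes were named, and all their probes were tested. Every value is given for the brightest probe of each gene, and only a part of the values for the dimmer *Saa1* and *Ptx3* probes. Genes of the other acute phase, cytokine, receptor and transcription factor, and receptor and partner lists were named where called in wild type over pTV, by TNFα or in a mutant over wild type, with the brightest probe per gene. Genes of these lists that are counted and not named are not reported here. Genes like a member were the 3 with the highest r. *Rela* and the 6 lists of cell type markers are given as checks. The members and lists were chosen with earlier results of these data known. Replicates were separate cultures, with RNA isolated on different days per the labels. On slides 1 to 3 the replicate number is the slide. There the deviations from the group means correlated at 0.308 to 0.613 in 18 same-numbered pairs and at −0.510 to 0.0954 in the 36 others, so the number pairs these arrays. Gene names are those of the files. Promoter windows were aligned with Biopython 1.88, and figures were drawn with matplotlib 3.10.9 and pandas 2.3.3. Protein sequences were not used here.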

Additional observations from a re-analysis of the deposited data

Results flagged for a closer look

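The difference between the mutants at *Hp* was flagged because the effects of KTR and K314/315R, each against wild type, differed by a test of the difference itself. The log2 difference of KTR from K314/315R was −1.58 (adjusted p = 0.024 by limma, lower in 3 of 3 KTR arrays than in both K314/315R arrays), with means of 2.01 and 3.59. Slide and cell line cannot be told apart here, and over the alternatives that gave a value for it the adjusted p ranged from 0.020 to 0.91. No group had 4 or more arrays, so single arrays were not tested as outliers.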

How the results depend on the processing

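The calls over pTV at *Saa1* (brighter probe), *Saa3*, *Hp*, *Lcn2* and both *Ptx3* probes held under every alternative that tested them. Of 826 recomputed differences, 780 kept their direction and their side of the threshold, 24 lost a call, 4 gained one and 18 changed sign. The normexp correction left 2 probes called for TNFα and 0 between the mutants. It also turned the sign of differences that were not called, *Hp* for TNFα (−0.29), *Ptx3* in KTR over wild type (0.021 and 0.12), the dim *Saa1* probe in K314/315R over wild type (−0.28) and *Lcn2* between the mutants (0.044). With the filter on all 14 arrays, 3 of the 8 were tested, 1 each of *Ptx3*, *Saa1* and *Lcn2*, and 3 were called in each comparison over pTV, 2 for TNFα and 0 between the mutants, since fewer probes were tested. Between the mutants 2 probes were called with the series matrix values and with no filter, 3 at an unadjusted p, and 0 with a random block for the slide or with only the arrays of the 2 groups. With each array left out in turn, the number of probes called was 2 to 3 for TNFα, 0 to 1 between the mutants, 0 for each mutant over wild type, 7 to 8 for K314/315R and for wild type at 0 h over pTV, and 7 for the other 2 comparisons. The count of 4 for TNFα was thus reached by no fit that left out 1 of the wild type arrays. The signs that changed there were all at differences that were not called, with lowest and highest log2 values of −0.19 and 0.17 for *Hp* by TNFα. In KTR over wild type they were −0.39 and 0.055 for the brighter *Ptx3* probe, −0.40 and 0.13 for *Lcn2* and −0.51 and 0.080 for *Saa2*. In K314/315R over wild type they were −0.050 and 0.24 and −0.0058 and 0.22 for the *Ptx3* probes, −0.24 and 0.066 for *Lcn2* and −0.073 and 0.43 for *Saa3*. Between the mutants *Lcn2* had −0.31 and 0.22. Where leaving out an array left 1 for K314/315R, it was assumed to vary like the other groups. The cause of these changes was not tested.

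With the replicate block, 7 probes were called in wild type and in KTR over pTV, 8 in K314/315R and in wild type at 0 h over pTV, 4 for TNFα, 0 in each mutant over wild type and 1 between the mutants. The replicate block changed no call of these probes. Pairs with a K314/315R array were not closer when their numbers matched. Their deviations correlated at −0.10 to 0.41 in 8 same-numbered pairs and at −0.42 to 0.42 in the 16 others. In comparisons with K314/315R the block is therefore no check of pairing. Signals near background limit *Saa2*, the dim *Saa1* probe and the pTV values of *Saa3* and *Hp*. The normexp correction also lowered the differences over pTV for which its values are given above, at *Saa1*, *Saa2*, *Saa3*, *Hp* and *Lcn2*. Its values over pTV are not given for *Ptx3*. There the lowest log2 difference of wild type at 3 h over pTV under any alternative was 4.67 by the brighter probe.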
